A study of Mus musculus with 6 samples.

Results

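Genes of glycolysis and of the response to low oxygen were described in neural stem cells cultured from the third and the lateral ventricle of the mouse. The set lists 37 genes, and a gene was measured where the platform annotation gave a probe set that symbol and no other. That held for 34 of the 37 among 19938 genes in all, and each gene was represented by its probe set with the highest mean. The position of probe sets in the genome was not checked, so the one used need not lie at the gene's own locus. Gpi1 and Eno1 had no probe set under this rule and are not analysed here. Gapdh is named, always together with other symbols, on 25 probe sets, so it is not analysed here either. The measured members are 14 glycolytic enzymes, 7 transporters and regulators of glycolytic flux, 11 targets of the hypoxia-inducible factor (HIF) outside glycolysis, and both HIF alpha subunits.

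Total RNA was hybridised to 6 arrays, 3 from cultures of the third ventricle and 3 from those of the lateral ventricle. Both groups came from the subventricular zone of wild-type C57BL/6 female embryos at embryonic day 17.5 and received no treatment. In both, cells were dissociated and grown in low-attachment dishes with N2, B27, 20 ng/ml FGF and 20 ng/ml EGF, so growth factors act on every array. The oxygen level of the incubator, the number of passages and the animal behind each replicate number stay unknown here, as no label states them.

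Glycolysis splits glucose into pyruvate, and lactate dehydrogenase turns pyruvate into lactate, which regenerates the cofactor that the pathway needs. HIF joins this pathway to oxygen. With oxygen present, prolyl hydroxylases (the Egln proteins) mark the HIF alpha subunit for destruction, and when oxygen is scarce the subunit persists, pairs with Arnt and binds DNA at a short core sequence in its targets. Neural stem and progenitor cells are known for high glycolytic activity. HIF alpha is controlled mainly at the protein level, which arrays do not measure.

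All values below are log2 expression of a probe set, so a difference of 1 is a doubling. Differences are the third minus the lateral ventricle, with the standard error (SE) of a limma fit over all 19938 genes and p-values adjusted by Benjamini-Hochberg over all of them. Levels of different genes are not set against each other, because each probe set has its own brightness. In bulk RNA, fewer cells of a type and less RNA per cell cannot be told apart.

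The arrays themselves were uneven. The third ventricle arrays correlated with each other at r = 0.995 over all genes, while lateral ventricle array 2 correlated more closely with the third ventricle arrays (0.991) than with lateral arrays 1 and 3 (0.980 and 0.982). Cell cycle genes moved with this split: their median deviation from the gene mean was 0.56, 0.55 and 0.58 in the third ventricle arrays 1, 2 and 3, and -1.41, 0.57 and -0.88 in lateral arrays 1, 2 and 3. Of 8 neural stem cell markers, all 8 lay above the background gauge in every array, the gauge being the 95th percentile of 1027 olfactory receptor genes (5.03 to 5.16). Of 8 endothelial and pericyte markers, 7 lay at or below it in every array, among them Pecam1, Cdh5 and Kdr.

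The core that HIF binds was looked for in RefSeq promoter windows of 300 bases, from 250 before to 50 after an annotated start (build GRCm38.p6). The letters searched were ACGTG and GCGTG on both strands. A palindromic stretch counts once on each strand, and adjacent cores can share bases. Windows were found for 34 of the 37 listed genes, and a window with at least 1 ACGTG for 24 of these 34 (70.6%), against 21.8% of all 27025 genes in the table. Among HIF targets it was 9 of 10, and among glycolytic enzymes 10 of 17 (58.8%). A gene counts here if any of its windows has the core, and some genes have several windows. By window, ACGTG was found in 27 of 48 for the members, against 19.6% of all 32851 windows. It was in 9 of 11 windows of HIF targets and 12 of 28 (42.9%) of glycolytic enzymes. The members' windows are rich in the CG pair that both cores contain, with a median of 20 CG pairs against 7 over all windows. GCGTG was found for 67.6% of the members with a window, against 35.2% of all genes. Among all windows with at least 20 such pairs, 30.1% of genes had ACGTG and 64.9% had GCGTG. Those windows have a median of 28 CG pairs, above that of the members, so they are not matched to the members.

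A letter match is not a binding site, and the absence of a match speaks only of these windows. The promoters of 6 members are shown with both cores in capitals, in either orientation, since the results below turn on these genes. Higd1a (chr9:121857747-121858046, minus strand) had the largest positive difference of the set and Ldhb (chr6:142507908-142508207, minus strand) the largest negative one. Ldha (chr7:46845554-46845853, plus strand) is the isozyme partner of Ldhb. Pfkfb3 (chr2:11502041-11502340, minus strand) and P4ha1 (chr10:59323046-59323345, plus strand) spread widely among lateral arrays, and Hif1a (chr12:73907617-73907916, plus strand) encodes the HIF alpha subunit itself.
Higd1a: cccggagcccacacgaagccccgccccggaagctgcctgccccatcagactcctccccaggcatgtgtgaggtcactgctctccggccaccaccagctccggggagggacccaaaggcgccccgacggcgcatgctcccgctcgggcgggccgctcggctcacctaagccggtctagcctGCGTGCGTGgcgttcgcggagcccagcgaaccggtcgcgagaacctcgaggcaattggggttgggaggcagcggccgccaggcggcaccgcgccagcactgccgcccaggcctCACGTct
Ldhb: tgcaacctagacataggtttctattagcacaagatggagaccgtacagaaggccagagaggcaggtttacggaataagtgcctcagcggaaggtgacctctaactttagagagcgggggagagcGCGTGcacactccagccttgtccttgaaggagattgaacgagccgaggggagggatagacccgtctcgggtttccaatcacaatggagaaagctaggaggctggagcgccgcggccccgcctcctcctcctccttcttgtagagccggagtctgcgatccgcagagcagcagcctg
Ldha: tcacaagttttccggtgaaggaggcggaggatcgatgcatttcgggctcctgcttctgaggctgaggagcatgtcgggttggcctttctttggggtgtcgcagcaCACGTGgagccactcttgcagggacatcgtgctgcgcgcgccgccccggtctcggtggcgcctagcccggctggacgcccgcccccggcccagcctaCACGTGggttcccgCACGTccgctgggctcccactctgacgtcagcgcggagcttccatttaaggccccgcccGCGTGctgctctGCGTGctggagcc
Pfkfb3: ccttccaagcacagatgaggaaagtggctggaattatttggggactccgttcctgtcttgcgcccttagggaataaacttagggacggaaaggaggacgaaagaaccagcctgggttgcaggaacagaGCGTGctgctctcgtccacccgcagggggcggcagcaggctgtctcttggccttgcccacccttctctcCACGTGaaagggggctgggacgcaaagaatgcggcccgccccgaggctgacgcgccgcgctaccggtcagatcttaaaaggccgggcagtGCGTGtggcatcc
P4ha1: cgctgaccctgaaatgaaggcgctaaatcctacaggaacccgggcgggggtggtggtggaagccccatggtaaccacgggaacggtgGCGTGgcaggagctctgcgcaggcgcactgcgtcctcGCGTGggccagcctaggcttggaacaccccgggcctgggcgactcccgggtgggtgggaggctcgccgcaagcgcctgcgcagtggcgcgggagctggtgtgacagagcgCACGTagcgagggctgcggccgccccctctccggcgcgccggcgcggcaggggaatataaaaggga
Hif1a: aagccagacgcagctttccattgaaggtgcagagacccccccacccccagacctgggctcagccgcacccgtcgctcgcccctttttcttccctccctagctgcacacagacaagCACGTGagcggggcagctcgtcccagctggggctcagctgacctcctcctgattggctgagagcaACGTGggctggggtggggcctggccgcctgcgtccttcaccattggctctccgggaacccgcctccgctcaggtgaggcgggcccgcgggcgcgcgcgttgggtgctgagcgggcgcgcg
The Ldha window shown held 7 matches, including CACGTG palindromes whose first bases lie 145 and 48 bases before the start. A further Ldha window, not shown (chr7:46846832-46847131), held 2 matches, both GCGTG. The Ldhb window held 1 match, a GCGTG beginning 126 bases before the start. A further Pfkfb3 window, not shown (chr2:11553880-11554179), held 1 match, an ACGTG. Hif1a and Pfkfb3 also carry a CACGTG palindrome. Vegfa, which also spread widely among lateral arrays, is not shown. Its window at chr17:46025114-46025413 held 2 matches, an ACGTG among them, and that at chr17:46032328-46032627 held 0. Vegfa thus counts as carrying ACGTG by the former window alone.

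**Figure D1:**
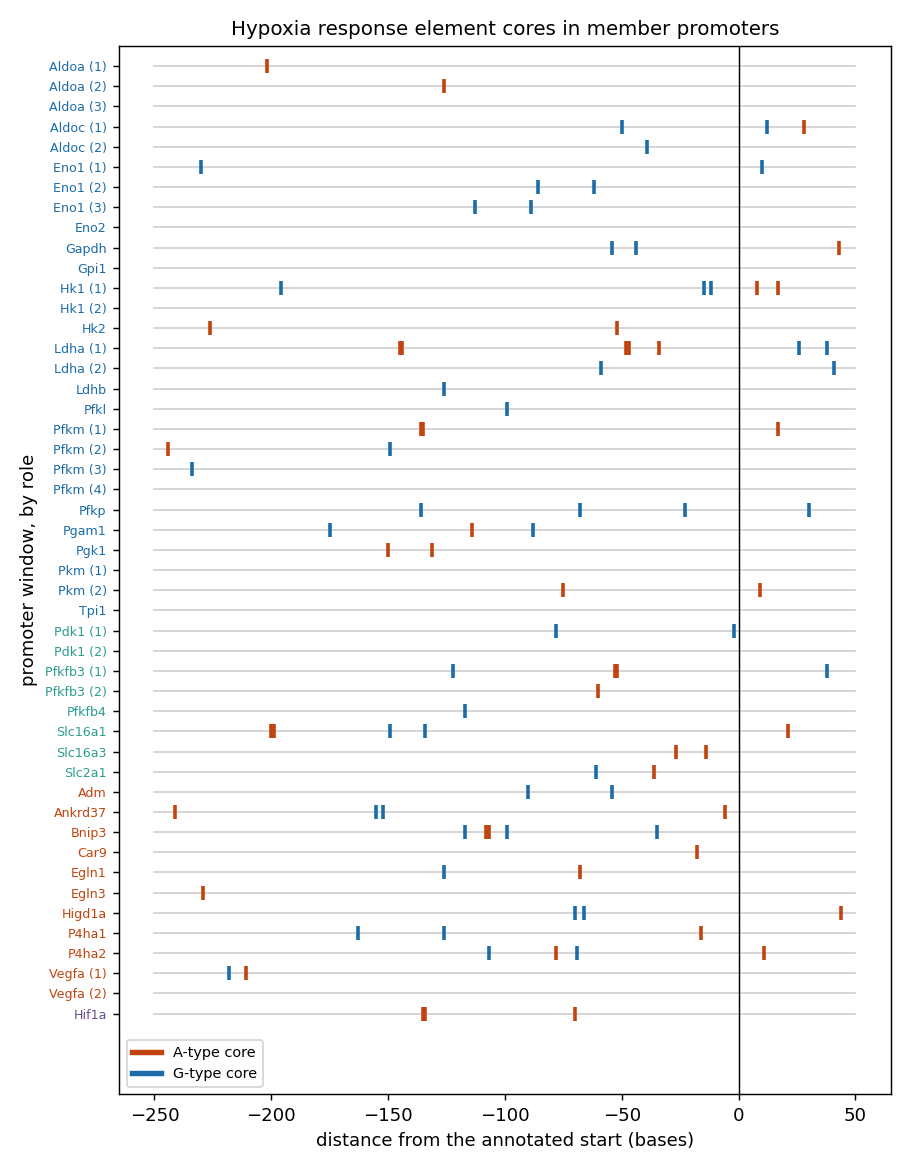
Positions of ACGTG (labelled A-type core) and GCGTG (labelled G-type core) on either strand in the members' promoter windows, with the distance from the annotated start in bases on the horizontal axis and a row per window. HIF targets carry an A-type core in 9 of 10 genes with a window, and the Tpi1, Gpi1 and Eno2 windows carry neither core.

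The central comparison asked whether these genes differ between cultures of the third and the lateral ventricle. At an adjusted p below 0.05 in limma, none of the 34 members passed, while 46 of all 19938 genes did (0.231%), and 7 members had an unadjusted p below 0.05, against 12.6% of all genes. The lowest adjusted p of a member was 0.198, for Higd1a. The groups did not overlap for 6 members (17.6%), against 17.0% of all genes, so this share lies at the background. They were Higd1a, Tpi1 and Pgam1 with the third ventricle above (3 of 34, against 7.77% of all genes) and Ldhb, Hif1a and Epas1 with it below (3 of 34, against 9.24%). A positive difference was seen for 21 of 34 members (61.8%), against 45.4% of all genes, and the median difference was 0.16, against -0.02 over all genes.

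**Figure D2:**
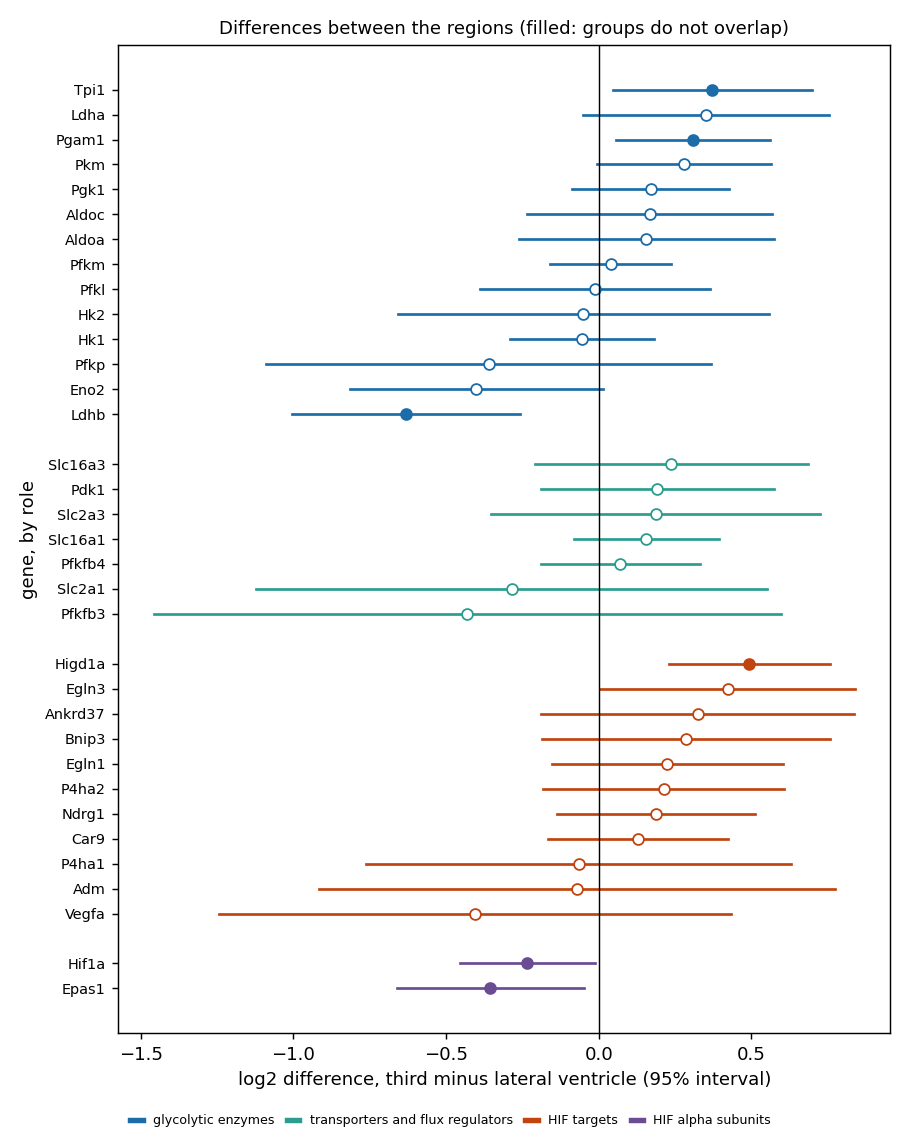
Log2 difference, the third minus the lateral ventricle, with its 95% interval for each of the 34 measured members, grouped by role. Filled points mark the 6 members whose groups do not overlap, and most intervals cross 0.

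The first steps of glycolysis, from glucose to the split of the sugar, showed no common direction. Hexokinases trap glucose in the cell, and Hk1 read 10.76, 10.67 and 10.61 in the third ventricle arrays 1, 2 and 3, against 10.88, 10.67 and 10.64 in lateral arrays 1, 2 and 3. The Hk1 difference was -0.05 (95% interval -0.29 to 0.18), and a second, dimmer probe set gave -0.13. Hk2, the hexokinase known as a HIF target, read 6.55, 5.76 and 6.45 in the third ventricle arrays, against 6.27, 5.89 and 6.76 in lateral arrays. Array 2 was the lowest in both regions, and the spread within each region exceeded the difference of -0.05.

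Phosphofructokinase commits the sugar to glycolysis and has a liver, a muscle and a platelet subunit. Pfkl (-0.01) and Pfkm (0.04) differed by less than the spread between arrays. The platelet type Pfkp read 5.70, 6.17 and 6.49 in the third ventricle arrays, against 5.94, 6.31 and 7.18 in lateral arrays, a difference of -0.36 (SE 0.32). Its value in lateral array 3 stood above all other arrays, and without that array the difference was -0.01. The aldolases split the sugar. Aldoa differed by 0.16 and Aldoc by 0.17, and lateral array 3 was the highest lateral array for Aldoa (10.61) and the lowest for Aldoc (9.06). The differences were 0.013 for Aldoa without lateral array 2 and 0.0055 for Aldoc without lateral array 3.

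Of the later steps, from triose to pyruvate, Tpi1, Pgk1, Pgam1 and Pkm had positive differences and Eno2 a negative one. Gapdh and Eno1, which also act there, were not measured. Triose phosphate isomerase, encoded by Tpi1, read 10.28, 10.25 and 10.55 in the third ventricle arrays, against 9.75, 10.01 and 10.20 in lateral arrays. All values of the third ventricle lay above all lateral ones, by a difference of 0.37 (SE 0.14, a 1.29-fold ratio) that did not pass (adjusted p = 0.354). Phosphoglycerate mutase, Pgam1, read 8.20, 7.98 and 8.22 in the third ventricle arrays, against 7.69, 7.88 and 7.90 in lateral arrays, again without overlap. Its difference of 0.31 (SE 0.11) had an adjusted p of 0.340. A further Pgam1 probe set has values identical to 4 decimals, as is also the case for Pgk1, so such a pair is not separate evidence. Yet another Pgam1 probe set differed by 0.42.

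Phosphoglycerate kinase, Pgk1, makes ATP directly and differed by 0.17 (95% interval -0.09 to 0.43). Pyruvate kinase, Pkm, catalyses the last step and differed by 0.28 (-0.01 to 0.56), with overlap between the groups. On its other probe set Pkm differed by 0.26, without overlap. The neuronal enolase Eno2 read 4.28, 3.96 and 4.49 in the third ventricle arrays, against 4.31, 4.83 and 4.80 in lateral arrays. All 6 values lie below the background gauge, so its difference of -0.40 (adjusted p = 0.408) cannot be read as a level of Eno2.

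The lactate dehydrogenase subunits had differences of opposite sign. Ldha, the subunit of tissues that make lactate, read 9.29, 9.51 and 9.75 in the third ventricle arrays, against 8.85, 9.19 and 9.45 in lateral arrays, a difference of 0.35 (SE 0.17). The ranges overlapped, since lateral array 3 lay above array 1 of the third ventricle. Ldhb, the subunit of tissues that consume lactate, read 8.74, 8.75 and 8.73 in the third ventricle arrays, against 9.58, 9.56 and 8.98 in lateral arrays. The third ventricle arrays were close together and below every lateral array, with lateral array 3 the nearest to them. The difference of -0.63 (SE 0.16) corresponds to 1.55-fold more signal in lateral cultures and did not pass (adjusted p = 0.239). A second Ldhb probe set had no overlap either and differed by -0.56.

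Within an array, the balance of the lactate dehydrogenase subunits can be followed as a deviation of the Ldha to Ldhb log2 ratio from its mean over arrays. It was 0.26, 0.47 and 0.74 in the third ventricle arrays, against -1.01, -0.65 and 0.19 in lateral arrays. Lateral array 3 thus lay nearest the third ventricle arrays in this ratio. The difference between the regions was 0.98 on the log2 scale, and it is a description built from a pair chosen with the values in view.

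Sums of oligodendrocyte lineage and of neuronal markers were higher in every lateral array. Over 5 measured oligodendrocyte lineage markers, the summed linear signal was 276 to 322 in the third ventricle arrays and 540 to 706 in lateral arrays, and 4 of the 5 lay above the gauge in all 6 arrays. Pdgfra carried most of this gap, since without it the sums were 180 to 201 in the third ventricle arrays and 236 to 267 in lateral arrays. Pdgfra and Sox10 did not overlap between the regions, and Cspg4, Mbp and Mog did. Over 6 neuronal markers the sum was 469 to 574 in the third ventricle arrays and 612 to 949 in lateral arrays, with Stmn2 and Syt1 below the gauge throughout. Without Tubb3 and Dcx the neuronal sums overlapped, at 194 to 211 in the third ventricle arrays and 208 to 245 in lateral arrays. The astrocyte list overlapped between the regions, at 497 to 592 in the third ventricle and 468 to 800 in lateral arrays, with Gfap below the gauge in all 6. The part of these cell types in the Ldhb, Hif1a and Epas1 differences was not tested.

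**Figure D3:**
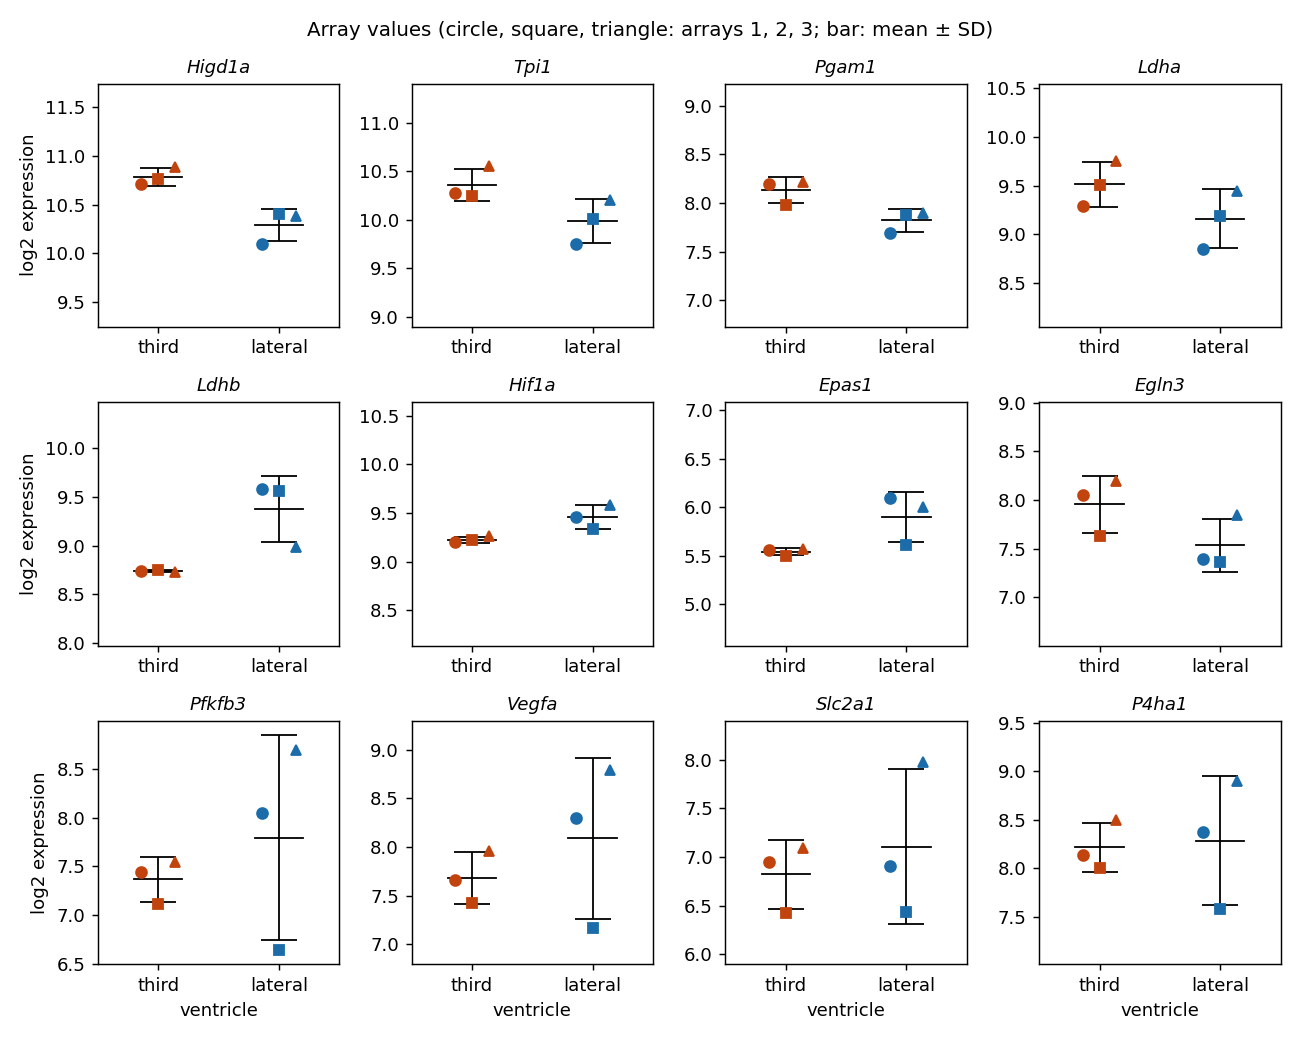
Log2 expression of 12 members in the 3 arrays of the third and 3 of the lateral ventricle, with the mean and SD of each group; every panel spans 2.5 log2 units. Ldhb lies at 8.73 to 8.75 in the third ventricle arrays, and Pfkfb3 spans 6.64 to 8.70 among lateral arrays.

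Glucose enters through Slc2a1 (GLUT1) and Slc2a3 (GLUT3). Slc2a1 read 6.95, 6.42 and 7.09 in the third ventricle arrays, against 6.91, 6.43 and 7.98 in lateral arrays. Arrays 1 and 2 gave nearly the same values in both regions and lateral array 3 alone stood high, so the difference of -0.29 was 0.15 without it. Slc2a3 read 6.93, 6.87 and 7.45 in the third ventricle arrays, against 6.80, 6.52 and 7.37 in lateral arrays, a difference of 0.19 (SE 0.23) that was 0.00096 without lateral array 2, 0.0018 without array 3 of the third ventricle and 0.42 without lateral array 3. Lactate leaves through monocarboxylate transporters, of which Slc16a1 (MCT1) differed by 0.16 and the HIF target Slc16a3 (MCT4) by 0.24. Slc16a3 read 6.56, 6.69 and 7.20 in the third ventricle arrays, against 6.29, 6.63 and 6.82 in lateral arrays, with array 3 the highest in each region. Its difference was 0.049 without array 3 of the third ventricle.

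Pdk1 inhibits pyruvate dehydrogenase and so keeps pyruvate out of the mitochondrion. It read 7.48, 7.12 and 7.78 in the third ventricle arrays, against 7.40, 7.14 and 7.26 in lateral arrays, a difference of 0.19 (SE 0.17). That difference was 0.034 without array 3 of the third ventricle and 0.36 without array 2. Pfkfb3 makes the activator of phosphofructokinase and had the widest lateral spread of all members. It read 7.44, 7.11 and 7.55 in the third ventricle arrays, against 8.05, 6.64 and 8.70 in lateral arrays. The third ventricle values sit inside the lateral range, which spans 4.17-fold, and the difference was -0.43 (SE 0.45). Pfkfb4 (0.07) did not exceed the gauge on any array. Over the 7 transporters and flux regulators the median difference was 0.16, with 5 positive, 0 called (against 0.231% of all genes) and 0 without overlap (against 17.0%). That median was 0.03 without array 3 of the third ventricle and 0.09 without lateral array 1.

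HIF targets outside glycolysis had 8 of 11 positive differences, a median of 0.21 and 0 calls, against 0.231% of all genes. Higd1a, a mitochondrial protein induced by low oxygen, read 10.71, 10.76 and 10.89 in the third ventricle arrays, against 10.10, 10.40 and 10.38 in lateral arrays. Every value of the third ventricle lay above every lateral value. The difference was 0.49 (SE 0.11, a 1.41-fold ratio, adjusted p = 0.198), and a second probe set differed by 0.55, again without overlap. Higd1a was the only one of the 11 targets whose groups did not overlap, against 17.0% of all genes.

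The hydroxylases that sense oxygen are themselves HIF targets. Egln3 read 8.05, 7.63 and 8.19 in the third ventricle arrays, against 7.39, 7.36 and 7.85 in lateral arrays, a difference of 0.42 (SE 0.18, adjusted p = 0.393). Lateral array 3 lay above array 2 of the third ventricle, so the groups overlapped. Egln1 differed by 0.22 (SE 0.16), by 0.064 without lateral array 1 and by 0.11 without array 3 of the third ventricle. Ankrd37, a small ankyrin repeat protein, read 7.47, 6.99 and 7.96 in the third ventricle arrays, against 7.02, 7.13 and 7.30 in lateral arrays, and had the widest spread of any member within the third ventricle. Its difference was 0.32 (SE 0.22), and 0.08 without array 3 of the third ventricle.

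Bnip3, which marks mitochondria for removal, differed by 0.29 (SE 0.20) on the probe set used and by 0.09 on another. It read 9.26, 9.44 and 10.02 in the third ventricle arrays, against 9.04, 9.31 and 9.50 in lateral arrays. Array 3 was the highest in each region, and the difference was 0.062 without array 3 of the third ventricle and 0.44 without array 1 of that region. The stress-responsive gene Ndrg1 differed by 0.19 and the collagen prolyl hydroxylase subunit P4ha2 by 0.21, and without array 3 of the third ventricle these were 0.046 and 0.057. The carbonic anhydrase Car9, often used as a marker of hypoxic tissue, did not exceed the background gauge on any array, at 3.84 to 4.27 in the third ventricle and 3.85 to 4.05 in lateral arrays.

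The remaining targets had negative differences and wide lateral spreads. Vegfa, the main growth factor for blood vessels, read 7.66, 7.42 and 7.96 in the third ventricle arrays, against 8.30, 7.17 and 8.79 in lateral arrays. Lateral arrays 1 and 3 lay above every array of the third ventricle and lateral array 2 below every one, so the difference of -0.41 (SE 0.36) joins opposite deviations. Adrenomedullin, Adm, read 6.79, 6.58 and 6.95 in the third ventricle arrays, against 6.45, 6.25 and 7.83 in lateral arrays. Its difference of -0.07 was 0.42 without lateral array 3. The collagen prolyl hydroxylase P4ha1 read 8.14, 8.01 and 8.50 in the third ventricle arrays, against 8.38, 7.58 and 8.90 in lateral arrays, a difference of -0.07 (SE 0.30).

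Both HIF alpha subunits had negative differences and groups without overlap. Hif1a read 9.20, 9.22 and 9.26 in the third ventricle arrays, against 9.46, 9.34 and 9.58 in lateral arrays. The difference was -0.23 (95% interval -0.46 to -0.01, adjusted p = 0.377). Epas1, which encodes HIF-2 alpha, read 5.56, 5.50 and 5.57 in the third ventricle arrays, against 6.09, 5.61 and 6.00 in lateral arrays, a difference of -0.36 (-0.66 to -0.05, adjusted p = 0.351). The third ventricle arrays spanned 0.07 for each gene, and lateral array 2 was the lateral array closest to them. Neither difference passed. Leaving out 1 array turned the sign or moved the difference by over 1.5 times for 27 of the 34 members, and for 7 it did neither, namely Tpi1, Pgam1, Ldhb, Higd1a, Egln3, Hif1a and Epas1.

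**Figure D4:**
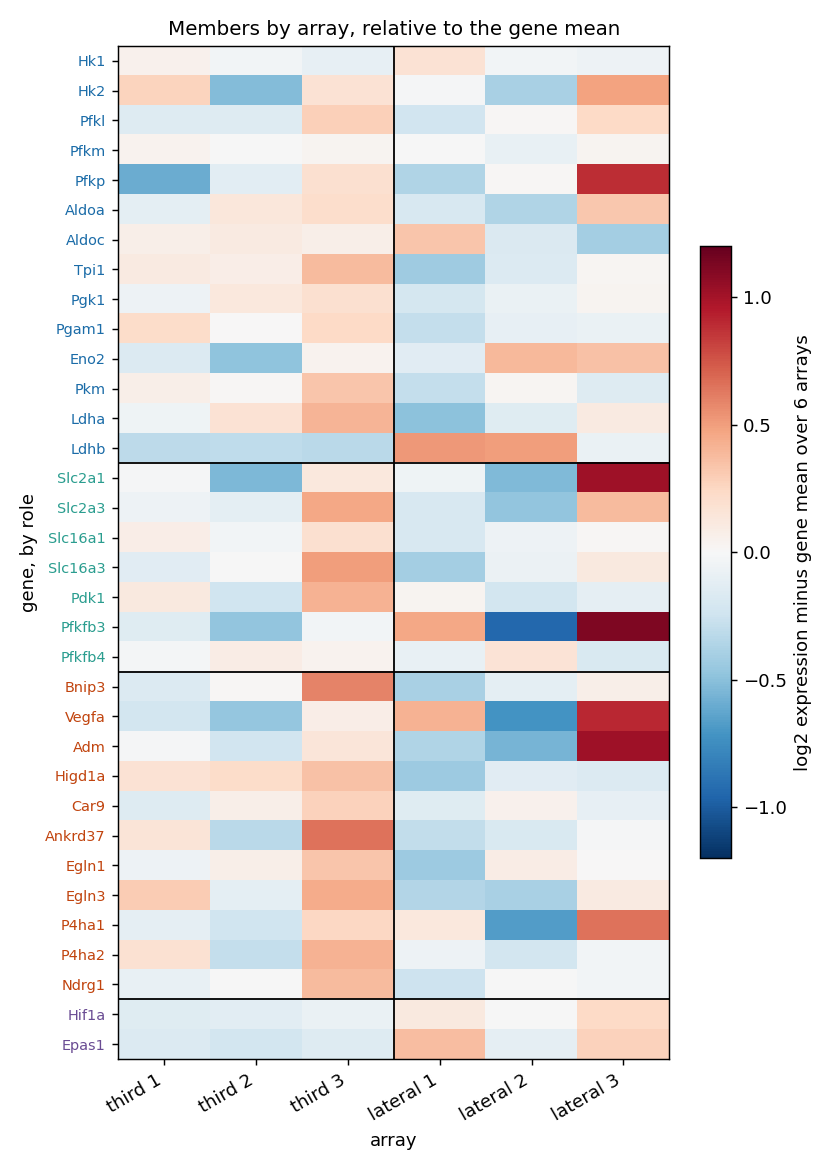
Log2 expression of each measured member relative to its mean over the 6 arrays (colour scale -1.2 to 1.2), with the third ventricle arrays on the left and lateral arrays on the right, grouped by role. Pfkfb3, Vegfa, Adm and Slc2a1 are high in lateral array 3, and Bnip3 and Ankrd37 are high in array 3 of the third ventricle.

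Set against each other, glycolytic enzymes and HIF targets had medians of the same sign. The median difference was 0.21 for HIF targets and 0.10 for glycolytic enzymes, a gap of 0.12. With the lowest 40% of genes left out, which drops Eno2 and Car9, the medians were 0.22 and 0.16 and the gap was 0.063. Of the 14 enzymes 8 had a positive difference (57.1%, against 45.4% of all genes), 0 were called (against 0.231%) and 3 had groups without overlap (21.4%, against 17.0%). By array, the median deviation of HIF targets minus that of the enzymes was -0.06, -0.11 and 0.16 in the third ventricle arrays, against -0.09, -0.10 and -0.02 in lateral arrays. Array 3 of the third ventricle was the only array with HIF targets above the enzymes by this measure. Without it the gap was -0.01, and it was 0.04 without lateral array 1 and 0.22 without lateral array 2.

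Single arrays weighed on the list medians too. For HIF targets, the median deviation was -0.07, -0.11 and 0.35 in the third ventricle arrays, against -0.29, -0.18 and 0.01 in lateral arrays, and the median difference was 0.06 without array 3 of the third ventricle and 0.11 without lateral array 1. For glycolytic enzymes, the deviations were -0.01, 0.00050 and 0.19 in the third ventricle arrays, against -0.21, -0.08 and 0.03 in lateral arrays. Their median difference was 0.06 without array 3 of the third ventricle and 0.01 without lateral array 2.

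**Figure D5:**
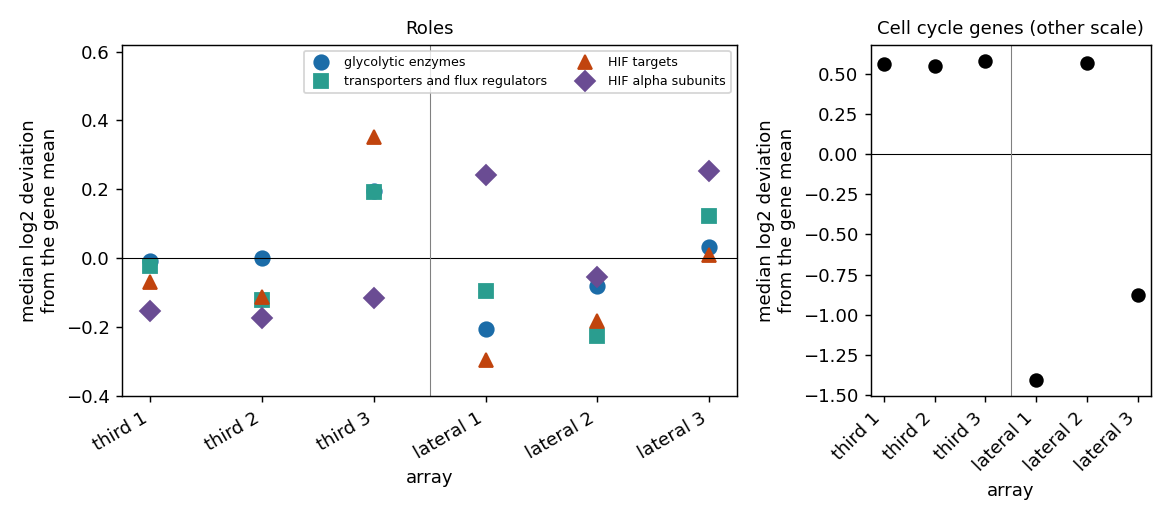
Median log2 deviation from the gene mean by array for the 4 roles (left) and for 25 measured cell cycle genes (right, on another scale), the third ventricle arrays at the left of each. HIF targets reach 0.35 in array 3 of the third ventricle, and the cell cycle genes are at -1.41 and -0.88 in lateral arrays 1 and 3.

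Array number was also followed within each region. Array 3 gave the highest value in both regions for 20 of 34 members (58.8%), against 11.7% of all genes. The order array 3, then 1, then 2 held in both regions for 8 members (23.5%), namely Slc2a1, Slc2a3, Pfkfb3, Vegfa, Adm, Egln3, P4ha1 and P4ha2, against 2.97% of all genes. This order was noted after the values were seen and is a description, because genes of an array share its RNA. None of the 14 glycolytic enzymes had it, a share near the 2.97% of all genes. Array 3 was highest in both regions for 7 of the 14 (50%), against 11.7% of all genes. Within lateral arrays alone, Pfkl, Pfkp, Tpi1, Pgk1, Pgam1 and Ldha stood lowest in array 1, with array 2 between and array 3 highest. The same held for Slc16a1, Slc16a3, Bnip3 and Ankrd37. Lateral array 3 was highest for 22 of 34 members, with array 2 lowest in 12 of these and array 1 in the rest. Over all 19938 genes it was highest for 6274, with array 2 lowest in 3259 of these and array 1 in the rest. In the third ventricle arrays alone, 4 of the 14 enzymes had the order array 3, then 1, then 2, namely Tpi1, Pgam1, Pkm and Eno2. It held there for 16 of 34 members and for 3217 of all 19938 genes.

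Lateral array 2, which correlated with the third ventricle arrays over all genes, decided which members passed when it was left out. Without it 4 of 34 members passed (11.8%), against 8.25% of all genes. Pfkfb3 (-1.01, adjusted p = 0.0209), Vegfa (-0.86, adjusted p = 0.0293) and Epas1 (-0.50, adjusted p = 0.0170) were lower in the third ventricle cultures (3 of 34, against 3.88% of all genes), and Higd1a (0.55, adjusted p = 0.0290) was higher (1 of 34, against 4.37%). For Pfkfb3 and Vegfa the omitted array lay on the far side of the third ventricle arrays, at 6.64 and 7.17, so these calls describe lateral arrays 1 and 3. Those arrays also had the low cell cycle deviations given above, and the part of the cell cycle in these calls was not tested. For Higd1a, the omitted array lay on the lateral side, at 10.40.

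A list made for this comparison held 71 symbols of further genes of these pathways. A few genes stand in it under both an older and a newer symbol, such as Ero1l and Ero1a. Measured were 61, and 0 passed in limma, against 0.231% of all genes, with 11 at an unadjusted p below 0.05 (18.0%, against 12.6%). Among 13 measured genes of the HIF machinery 7 differences were positive, among 20 other genes of glucose and pyruvate use 11, and among 28 other HIF targets 14, with medians of 0.01, 0.01 and 0.00243. The widest positive differences were 0.57 for Fam162a, a mitochondrial protein induced by hypoxia (adjusted p = 0.266), 0.53 for the collagen lysyl hydroxylase Plod2 (adjusted p = 0.235) and 0.49 for the glycogen branching enzyme Gbe1 (adjusted p = 0.394). Fam162a read 10.62, 10.93 and 11.12 in the third ventricle arrays, against 10.08, 10.43 and 10.46 in lateral arrays, without overlap.

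The widest negative differences were -0.57 for the lipoprotein receptor Vldlr (adjusted p = 0.562), -0.54 for the secreted glycoprotein Stc2 (adjusted p = 0.394) and -0.54 for the ubiquitin ligase adaptor Wsb1 (adjusted p = 0.214). Wsb1 read 8.54, 8.60 and 8.74 in the third ventricle arrays, against 9.25, 8.92 and 9.33 in lateral arrays, again without overlap. The HIF partner Arnt differed by 0.05 and Vhl, which directs hydroxylated HIF alpha to destruction, by 0.08. Hif1an, the asparaginyl hydroxylase that blocks HIF activity, differed by -0.31 (adjusted p = 0.366). Without lateral array 2, 4 of the 61 passed (6.56%), Ak4 as higher and Vldlr, Stc2 and Wsb1 as lower, against 8.25% of all genes.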

How the data were processed

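The deposited table holds a log2 expression value for each probe set and array. Per the submitters' processing notes, the authors used RMA and version 1.1 of Affymetrix Expression Console. Their further settings and genome build are not given in any source used here. RMA compresses dim probe sets toward the background. Per the labels' protocols, cDNA was amplified with a NuGEN kit for picogram amounts of RNA, which can add spread between arrays. All 35556 probe sets have 6 values, and array medians lie between 5.43 and 5.47.

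The platform annotation names 1 gene for 21789 probe sets, several for 1621 and none for 12146. Its symbols were compared with the RefSeq table of GRCm38.p6 through gene IDs (21698 matched, 0 changed). Where the probe sets of a gene tied, the first identifier was kept. Genes were compared with limma 3.58.1 in R 4.3.3 (lmFit, eBayes with default prior, no covariate), at an adjusted p below 0.05, with no filter on dim genes. The fit was tested on simulated data drawn independently for each gene and array. Those data hold no effect shared by the genes of an array, so that test does not cover such effects. The labels call the arrays biological replicates, but which animals gave them is not stated, so p-values reflect variation among cultures only, and the number of arrays limits the precision. With 3 arrays a group, the smallest two-sided p of an exact permutation test is 0.1.

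Members and gene lists were chosen with earlier results of these data known, so no test was run on a list. Members named with all array values are those without overlap, the 3 largest differences in each direction per role, both HIF alpha subunits and the widest spreads, and the array values of a few others, such as Hk1, Slc16a3 and Bnip3, were added after they were seen. Of the further pathway genes, the 3 largest differences in each direction were named, and Arnt, Vhl, Hif1an and Ak4 were added. The alternatives were another probe set choice, dropping the lowest 40% of genes, 2 normalizations, another prior, array weights, a replicate block, a 1.2-fold minimum difference and the omission of each array in turn.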

Additional observations from a re-analysis of the deposited data

How the results depend on the processing

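No member passed in the 8 alternatives that kept all 6 arrays, and leaving out 1 array gave 0 to 4 member calls and 0 to 4 calls among the further pathway genes. Over all genes the number of calls was 158 with array weights, 17 with a minimum fold of 1.2, and 4 to 1644 when 1 array was left out. The gap between the medians of HIF targets and glycolytic enzymes ranged from -0.0054 to 0.22 when 1 array was left out. Of 34 members, 26 kept their sign in every alternative that gave a value, of which there were 14, or 13 for the 3 members that the filter removed (Eno2, Pfkfb4 and Car9). The sign turned on leaving out 1 array for Slc2a1 (-0.62 to 0.15), Hk1 (-0.10 to 0.019), Hk2 (-0.26 to 0.20), Pfkl (-0.16 to 0.10), Pfkfb3 (-1.01 to 0.021), Pfkfb4 (-0.0014 to 0.17), Adm (-0.37 to 0.42) and P4ha1 (-0.42 to 0.24), and for Pfkl also with cyclic loess (0.013). The cause was not tested. With the replicate number as a block, 57 genes and 0 members passed. The labels do not tie numbers to animals. Over all genes, same-numbered arrays deviated from their group means with correlations of 0.24, 0.11 and 0.07 for numbers 1, 2 and 3, each array correlating best with its own number, which is a hint from the data and not the design. Over the 34 members these correlations were 0.49, 0.41 and 0.43. Without members below the background gauge, an alternative chosen after seeing the data, and with the lowest 40% of genes left out, the medians were 0.22 for HIF targets and 0.16 for glycolytic enzymes, and their gap was 0.063. Dim probe sets such as Eno2, Pfkfb4 and Car9 give no usable level.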

Other observations

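Among the 28 other HIF targets, array 3 gave the highest value in both regions for 15 (53.6%), against 11.7% of all genes, and the order array 3, then 1, then 2 held in both for Vldlr, Stc2, Ero1a, Hilpda and Jmjd6. These genes were picked out after their values were seen. Ero1a, the oxidase that forms disulfide bonds in the endoplasmic reticulum, read 9.23, 9.09 and 9.73 in the third ventricle arrays, against 9.79, 8.63 and 10.80 in lateral arrays. Its lateral range spanned 4.51-fold, and its difference between the regions was -0.39 (SE 0.47). The circadian repressor Bhlhe40 read 7.96, 7.37 and 7.95 in the third ventricle arrays, against 7.73, 6.46 and 8.08 in lateral arrays, again with array 2 the lowest in each region.

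Of 19904 genes outside the set, the 5 whose values over 6 arrays followed the mean HIF target profile most closely were S1pr4, Cd3e, Got1l1, Rgs4 and Kcnk12. Their Pearson correlations of 0.980 to 0.996 are the highest of a search over all these genes, so they carry no p-value. Of the 5, Got1l1 and Rgs4 exceeded the background gauge on 0 arrays, S1pr4 on 2, Kcnk12 on 3 and Cd3e on all 6. Cd3e read 5.45 to 5.63, against a gauge of 5.03 to 5.16, so none of the 5 lies far above it. In limma, the adjusted p of their regional differences was 0.723 to 0.907.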
